A study of Mus musculus with 4 samples.

Results

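Genes that mark the oligodendrocyte lineage, from its precursor cells to cells that are starting to make myelin, were examined in the cortex of APP transgenic mice (APP) and wild type mice (WT). The 9 genes were a list of lineage genes by symbol, namely Pdgfra, Cspg4, Olig1, Olig2, Sox10, Myrf, Gpr17, Bcas1 and Enpp6. All 9 were counted, as 14 of the 37539 transcripts in the deposited table, which summed to 18386 genes and unmatched transcripts. Whole transcriptome sequencing had been carried out on cortex of 2 male APP mice and 2 male WT mice, each 12 months old and on a C57BL/6 background. The APP mice carry a mutant APP (APPswe) and a further transgene, each driven by a prion protein promoter, so expression of the transgenes is not limited to 1 cell type. The WT controls carry neither transgene. The study asked which RNAs differ between these cortices, as a start to a network of competing RNAs. The libraries are called APP.3, APP.4, WT.1 and WT.2 after the deposited columns, and a pair of values for a group is given in that order.

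Oligodendrocytes are the cells that wrap axons of the central nervous system in myelin. They arise throughout life from precursor cells that carry the growth factor receptor Pdgfra and the proteoglycan Cspg4 (NG2) on their surface. The transcription factors Olig1, Olig2 and Sox10 are made from the precursor to the mature cell. As a precursor commits to differentiate it makes Gpr17 and Bcas1, then Enpp6, and Myrf switches on the myelin genes. The genes were therefore grouped as precursor (Pdgfra, Cspg4), lineage factor (Olig1, Olig2, Sox10) and differentiating (Myrf, Gpr17, Bcas1, Enpp6). The groups are not exclusive, since Pdgfra is also made by perivascular fibroblasts and Cspg4 by pericytes of brain vessels. Bcas1 is also a protein of myelin, so the differentiating genes do not mark newly formed cells alone.

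The libraries held between 28525117 and 43881196 counts, those of APP fewer than those of WT. The 9 genes together took 0.0181% to 0.0185% of the counts in APP and 0.0145% to 0.0146% in WT. Replicates were further apart in APP than in WT, with a chi-square per degree of freedom of 28.7 against 5.27, where a value near 1 would mean counting error alone. App, which can also collect reads of its transgene, differed between the groups by a log2 fold change of 1.52 and was higher in APP. Levels are given as CPM, the count relative to the library size after scaling by edgeR's TMM method, errors as SD over 2 libraries, and adjusted p-values are those of the quasi-likelihood test in edgeR, after Benjamini and Hochberg, over all 18386 features. With 2 mice in a group, an exact permutation test of 1 gene has a smallest possible p of 0.333, and the edgeR values depend on pooling the spread over genes.

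Of the 9 genes, 1 had an adjusted p under 0.05, Bcas1, which was 1.37-fold higher in APP. In the same direction 1.11% of all genes passed that threshold, and 1.25% in either direction. The study's further cut-off of a 1.5-fold change was met together with it by 0 of the 9 genes in edgeR's quasi-likelihood test, against 0.935% of all genes higher in APP, 0.0381% lower and 0.974% in either direction. An unadjusted p under 0.05 was found for 5 of the 9, each higher in APP, against 7.54% of all genes higher and 4.84% lower. All 9 had a log2 fold change above 0, as did 49.7% of all genes. The median over the 9 was 0.32, and over all genes it was 0.00. In cortex as a whole, more cells of the lineage and more RNA per cell cannot be told apart. The call of Bcas1 was not kept when either WT library was left out, as given below. Olig1 and Myrf also passed under the exact test and the likelihood ratio test of edgeR. That made 3 of the 9, against 2.46% and 2.62% of all genes. With DESeq2 it was 1 of the 9, Bcas1, against 1.49%.

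**Figure D1:**
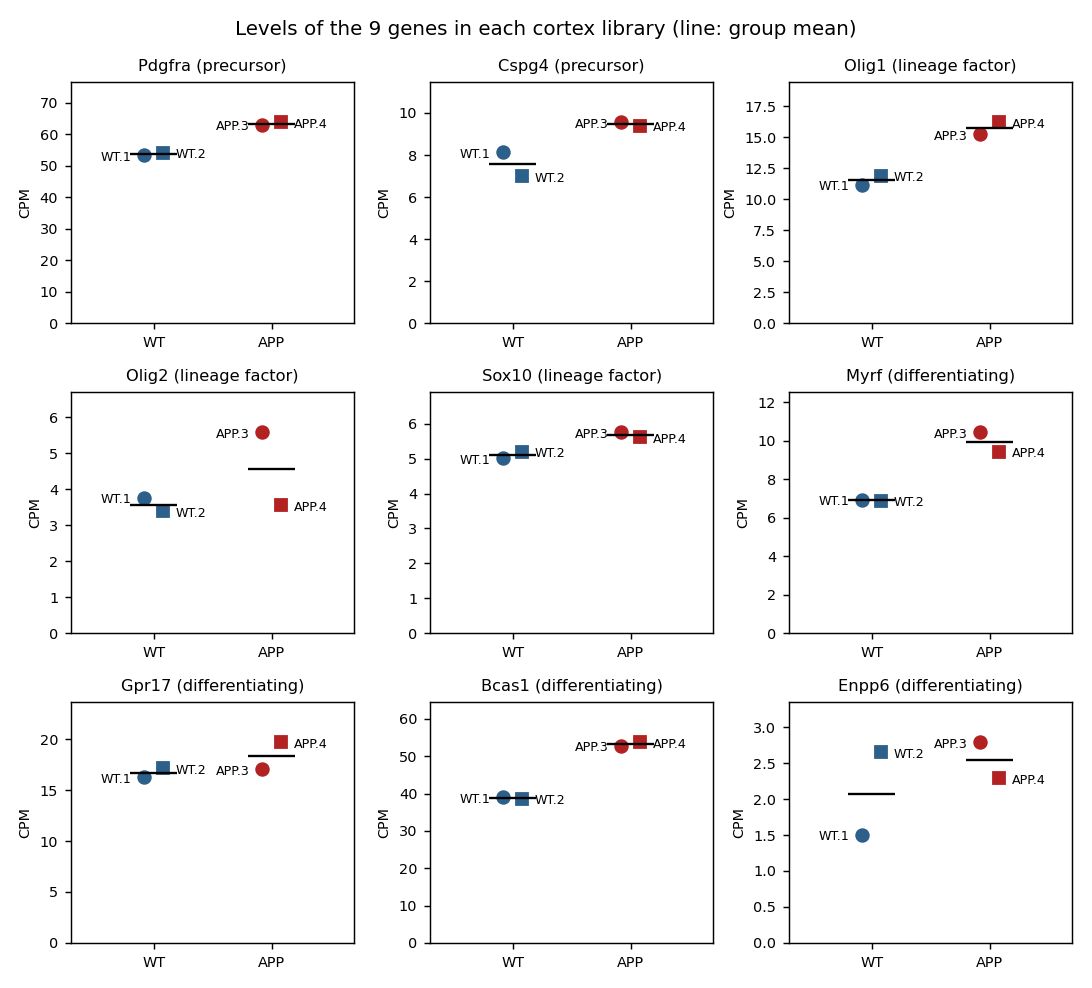
Level of each of the 9 genes in CPM, on axes starting at 0, in each WT library (blue) and APP library (red), with a black line at each group mean. In 6 of the panels the 2 APP points lie above the 2 WT points, while in those of Olig2, Gpr17 and Enpp6 the groups overlap.

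Precursor genes were slightly more abundant in both APP libraries. Pdgfra, the receptor for platelet-derived growth factor that keeps precursors dividing, lies on chromosome 5 of GRCm38 from 75152292 to 75198215 and was counted on 1 transcript of 23 exons. It had 63.0 and 63.7 CPM in APP and 53.4 and 54.1 in WT, from 1828, 1974, 2345 and 1916 counts. The 2 libraries of each group were close together and the groups did not overlap. The APP mean was 63.4 ± 0.513 CPM and the WT mean 53.7 ± 0.486 (SD, n = 2). The log2 fold change was 0.24 (standard error 0.07, edgeR adjusted p = 0.165). The 95% interval of the fold, 1.06 to 1.31, lay below the 1.5-fold cut-off.

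Cspg4 on chromosome 9 (56865033 to 56899870), the proteoglycan NG2 of the precursor surface, was lower overall. It had 9.55 and 9.40 CPM in APP and 8.12 and 7.0 in WT. The groups again did not overlap, with the wider gap inside WT. Its log2 fold change was 0.32 (standard error 0.13, edgeR adjusted p = 0.339), with a 95% interval of the fold from 1.02 to 1.53. Neither precursor gene passed the test.

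The promoters of 4 of the 9 genes, Pdgfra, Cspg4, Olig2 and Enpp6, were found by symbol in RefSeq (GRCm38.p6), as windows from 250 bases before to 50 after the annotated start. One of each stage is shown, 5′ to 3′, so that the genes compared here can be seen beside their control regions. Capitals mark each match to the E-box CANNTG, the site of basic helix-loop-helix factors such as Olig1 and Olig2. The SOX core ACAAAG and the Myrf motif CTGGCAC, which do not overlap these matches, were searched on both strands too.
Pdgfra promoter, chr5:75152001-75152300, plus strand: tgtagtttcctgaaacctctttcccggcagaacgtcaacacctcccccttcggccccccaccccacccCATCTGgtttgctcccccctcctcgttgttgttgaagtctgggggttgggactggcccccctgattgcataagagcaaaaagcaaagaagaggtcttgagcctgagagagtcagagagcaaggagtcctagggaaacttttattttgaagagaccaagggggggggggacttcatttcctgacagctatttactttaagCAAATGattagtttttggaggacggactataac
Olig2 promoter, chr16:91225300-91225599, plus strand: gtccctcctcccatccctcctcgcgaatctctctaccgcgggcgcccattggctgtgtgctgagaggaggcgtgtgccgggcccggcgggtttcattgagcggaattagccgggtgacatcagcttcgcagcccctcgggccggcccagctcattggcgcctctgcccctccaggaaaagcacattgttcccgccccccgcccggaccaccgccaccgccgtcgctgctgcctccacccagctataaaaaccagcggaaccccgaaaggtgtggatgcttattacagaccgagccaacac
Enpp6 promoter, chr8:46986637-46986936, plus strand: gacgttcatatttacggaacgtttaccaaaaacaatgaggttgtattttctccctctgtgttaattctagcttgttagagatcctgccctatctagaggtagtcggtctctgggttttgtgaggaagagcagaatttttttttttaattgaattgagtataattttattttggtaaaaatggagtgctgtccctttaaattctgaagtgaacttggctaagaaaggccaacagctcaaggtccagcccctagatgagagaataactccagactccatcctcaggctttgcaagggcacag
The Pdgfra window held 2 E-boxes, beginning at positions -182 and 18 from the start, and the other 3 windows held 0. None of the 4 windows had the SOX core or the Myrf motif. Of the 32851 promoter windows in the table, 72.3% held an E-box, 18.7% the SOX core and 5.01% the Myrf motif. The G and C content was 51.0% for Pdgfra, 60.0% for Cspg4, 65.0% for Olig2 and 40.3% for Enpp6, with a median of 52.7% over all windows.

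Of the lineage factors, Olig1 showed the clearest separation. Olig1, a basic helix-loop-helix factor needed for precursors to mature, is a gene of 1 exon on chromosome 16 (91269772 to 91271933). It had 15.2 and 16.2 CPM in APP and 11.2 and 11.9 in WT, so the lowest APP value was well above the highest WT value. The means were 15.7 ± 0.665 and 11.5 ± 0.533 CPM (SD, n = 2), and the log2 fold change was 0.45 (standard error 0.10, edgeR adjusted p = 0.0895, 95% interval of the fold 1.16 to 1.60). It passed the 0.05 threshold with edgeR's exact test (adjusted p = 0.0214) and likelihood ratio test (adjusted p = 0.0195) and missed it with DESeq2 (adjusted p = 0.160).

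Olig2, the neighbouring gene that specifies the lineage (chromosome 16, 91225457 to 91228677), did not separate the groups. It had 5.58 and 3.55 CPM in APP and 3.76 and 3.39 in WT, from 162, 110, 165 and 120 counts. Only APP.3 was apart, and APP.4 lay between the WT libraries. The log2 fold change was 0.35 (standard error 0.22, edgeR adjusted p = 0.597), and without APP.3 it was -0.014. Its 95% interval of the fold ran from 0.894 to 1.81, so neither a small fall nor a rise of over 1.5-fold was outside it.

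Sox10 (chromosome 15, 79154908 to 79165240, minus strand), which acts with Olig2 and Myrf on myelin genes, had 5.76 and 5.62 CPM in APP and 5.01 and 5.19 in WT. The APP libraries were above the WT libraries by a narrow margin. The log2 fold change was 0.16 (standard error 0.14, edgeR adjusted p = 0.733), with a 95% interval of the fold from 0.892 to 1.40.

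Olig1 and Olig2 are related in sequence, which bears on whether reads of one could have been counted on the other. The most similar stretch of 100 bases between their transcripts, within the coding sequence of each, is shown from GENCODE M21 (GRCm38), with the bases that differ in capitals.
Olig1, chr16:91270141-91270240, plus strand: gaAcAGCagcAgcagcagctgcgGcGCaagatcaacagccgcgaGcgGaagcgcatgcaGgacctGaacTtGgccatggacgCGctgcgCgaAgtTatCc
Olig2, chr16:91226706-91226805, plus strand: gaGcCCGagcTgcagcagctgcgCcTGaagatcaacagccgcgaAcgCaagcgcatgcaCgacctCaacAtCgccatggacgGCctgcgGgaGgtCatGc
These windows, of the length of 1 read, were identical at 80 bases and differed at 20, against the 7 mismatches that the authors allowed in alignment. Of the 36 pairs of main transcripts among the 9 genes this was the most similar pair, and the next, Myrf with Bcas1, differed at 46 bases. Reads of full length without errors would thus not be shared between the genes at that setting.

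Differentiating genes had log2 fold changes from 0.14 to 0.52. The groups were well apart for Bcas1 and Myrf and overlapped for Gpr17 and Enpp6. Bcas1 encodes a protein of newly formed oligodendrocytes and of myelin and lies on chromosome 2 (170346991 to 170427845, minus strand). It had 52.7 and 53.8 CPM in APP and 39.0 and 38.6 in WT, from 1530, 1665, 1714 and 1369 counts. The difference between the groups was many times that within them, with means of 53.3 ± 0.722 and 38.8 ± 0.272 CPM (SD, n = 2). Bcas1 rose by a log2 fold change of 0.46 (standard error 0.07, edgeR adjusted p = 0.0176, 95% interval of the fold 1.23 to 1.53). With DESeq2 its adjusted p was 0.000836, and over all alternatives that keep the 4 libraries it ran from 2.23e-05 to 0.0192. Without WT.1 the edgeR adjusted p was 0.198 and without WT.2 it was 0.231, at log2 fold changes of 0.46 and 0.45. These fits take the spread from the APP pair alone. In both, the size of the change held and the call was lost, and why it was lost was not tested.

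Myrf (chromosome 19, 10208272 to 10240748, minus strand), the transcription factor that turns on myelin genes, had the largest log2 fold change of the 9. It had 10.4 and 9.43 CPM in APP and 6.94 and 6.88 in WT. The WT libraries were nearly equal, and each APP library was above them. Its log2 fold change was 0.52 (standard error 0.12, edgeR adjusted p = 0.0988, 95% interval of the fold 1.18 to 1.74). The exact test gave it an adjusted p of 0.0403, the likelihood ratio test 0.0361 and DESeq2 0.209.

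Gpr17, a receptor that is made for a short time in committed precursors, lies on chromosome 18 (31942997 to 31949636, minus strand). It had 17.1 and 19.7 CPM in APP and 16.3 and 17.2 in WT, and APP.3 lay between the WT libraries. Its log2 fold change of 0.14 (standard error 0.10, edgeR adjusted p = 0.660) was the smallest of the 9, with a 95% interval of the fold from 0.935 to 1.29. Lims2, which overlaps it on the opposite strand, had at most 57 counts in a library, against 495 to 716 for Gpr17.

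Enpp6, a choline-specific phosphodiesterase that marks newly forming oligodendrocytes (chromosome 8, 46986887 to 47096762), was the least abundant, with 81, 71, 66 and 94 counts. These gave 2.79 and 2.29 CPM in APP and 1.5 and 2.65 in WT, and the WT libraries were far apart for so few counts. The log2 fold change was 0.31 (standard error 0.29, edgeR adjusted p = 0.745) and turned to -0.062 without WT.1. The 95% interval of the fold, 0.785 to 1.97, held both no change and a change of 1.5-fold.

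**Figure D2:**
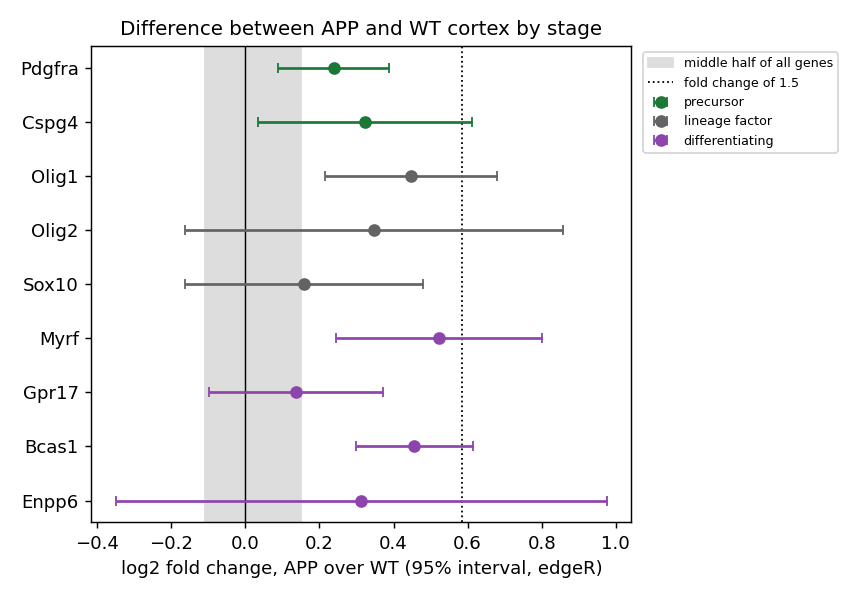
Log2 fold change of APP over WT for each gene with its 95% interval from edgeR's quasi-likelihood fit, coloured by stage, with the range between the quartiles of all genes in grey and the 1.5-fold cut-off dotted. Intervals of Pdgfra, Cspg4, Olig1, Myrf and Bcas1 lie above 0, and the stages overlap.

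The groups did not overlap and were higher in APP for 6 genes, Pdgfra, Cspg4, Olig1, Sox10, Myrf and Bcas1. Of all genes 21.3% were apart in this direction and 21.4% in the other, where 0 of the 9 were. The 6 came from every stage, both precursor genes, 2 of the 3 lineage factors and 2 of the 4 differentiating genes.

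Reads of most of these genes fell on 1 transcript. Pdgfra, Cspg4, Olig1, Olig2, Sox10 and Gpr17 were each counted on a single protein-coding transcript. For Bcas1, 97.0% of the counts lay on transcript ENSMUST00000013667, which had 51.8 and 51.9 CPM in APP and 37.7 and 37.3 in WT when all transcripts were fitted. It was the only 1 of the 14 transcripts past the threshold (log2 fold change 0.47, edgeR adjusted p = 0.00950 over transcripts). The share of all transcripts past that threshold is not given here, so this count has no background beside it. The protein-coding transcript of Myrf had 9.18 and 8.96 CPM in APP and 6.26 and 6.21 in WT (log2 fold change 0.54, edgeR adjusted p = 0.0604). The other transcript of Myrf is a retained intron.

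That retained intron took 39 of 303 counts of Myrf in APP.3 (12.9%, 95% Wilson interval 9.56% to 17.1%) and 13 of 292 in APP.4 (4.45%, 2.62% to 7.47%). The WT libraries, with 9.51% and 9.84%, lay between them, so the share differed inside APP and not between the groups. The shorter transcript of Enpp6 took 21.2% of its counts in WT.1 (95% Wilson interval 13.1% to 32.5%) and 8.51% to 11.3% in the other libraries, on 8 to 14 counts each. Intervals cover counting error only.

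With all 4 libraries kept, the differentiating genes lay slightly further above WT than the precursor genes in each summary. Whether the APP and WT libraries overlapped in this depended on how each stage was summarised. The mean log2 CPM of the 2 precursor genes was 4.62 and 4.61 in the APP libraries and 4.38 and 4.28 in the WT libraries, a difference of 0.28. For the 4 differentiating genes it was 3.67 and 3.62 in APP and 3.17 and 3.39 in WT, a difference of 0.36. The log2 ratio of differentiating to precursor genes was therefore -0.95 and -0.99 in APP and -1.21 and -0.89 in WT. The APP values lay between the WT values, and the difference of the means, 0.079, was smaller than the pooled SD of 0.160 and ran from -0.079 without WT.1 to 0.24 without WT.2. With 1 gene left out at a time it ran from 0.026 without Myrf to 0.16 without Gpr17.

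With the CPM of each stage summed instead, which lets the most abundant genes decide, the log2 ratio was 0.19 and 0.22 in APP and 0.052 and 0.098 in WT. These groups did not overlap. The precursor sum, 72.6 and 73.1 CPM in APP and 61.5 and 61.1 in WT, was mostly Pdgfra, and the differentiating sum, 83.0 and 85.2 in APP and 63.7 and 65.3 in WT, was mostly Bcas1. As a ratio over the list it was given no test. The median log2 fold change was 0.28 over the precursor genes, 0.35 over the lineage factors and 0.38 over the differentiating genes.

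**Figure D3:**
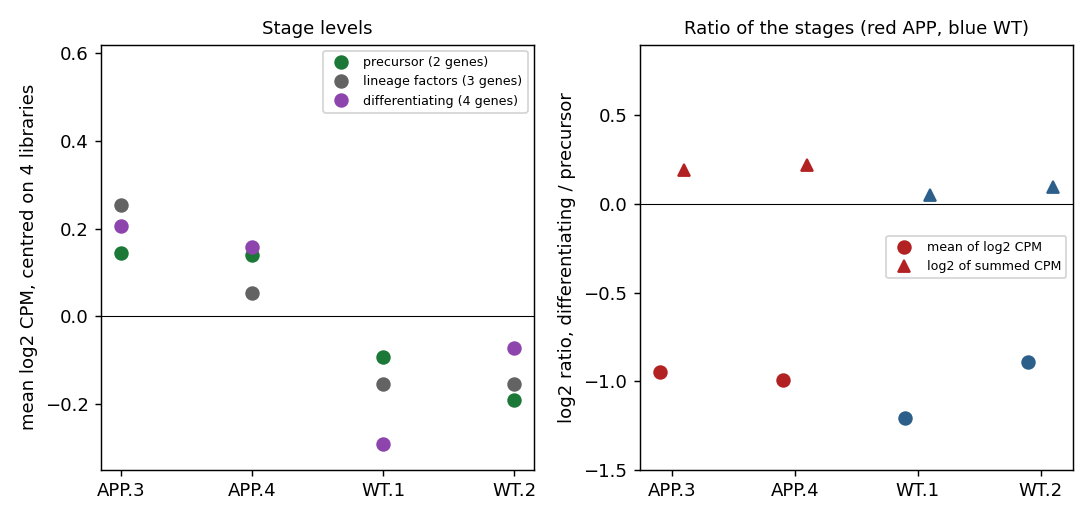
Left, mean log2 CPM of each stage in each library, centred on the 4 libraries; right, log2 ratio of differentiating to precursor genes per library, from mean log2 CPM (circles) and from summed CPM (triangles). All 3 stages are above 0 in APP and below it in WT, while the circles of APP lie between those of WT.

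Per length of transcript, Bcas1 was the most abundant of the 9, with 13.6 to 19.2 CPM per kb over the 4 libraries, and Enpp6 the least, with 0.621 to 0.838. Between them came Pdgfra (8.15 to 9.73 CPM per kb), Olig1 (5.16 to 7.48), Gpr17 (3.14 to 3.80), Sox10 (1.85 to 2.12), Olig2 (1.34 to 2.21), Myrf (1.31 to 2.03) and Cspg4 (0.862 to 1.18). Ranges of neighbours in this order overlapped for Sox10 with Olig2 and for Olig2 with Myrf. Since the lineage includes dividing precursors and mature cells, these levels are sums over all of them.

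**Figure D4:**
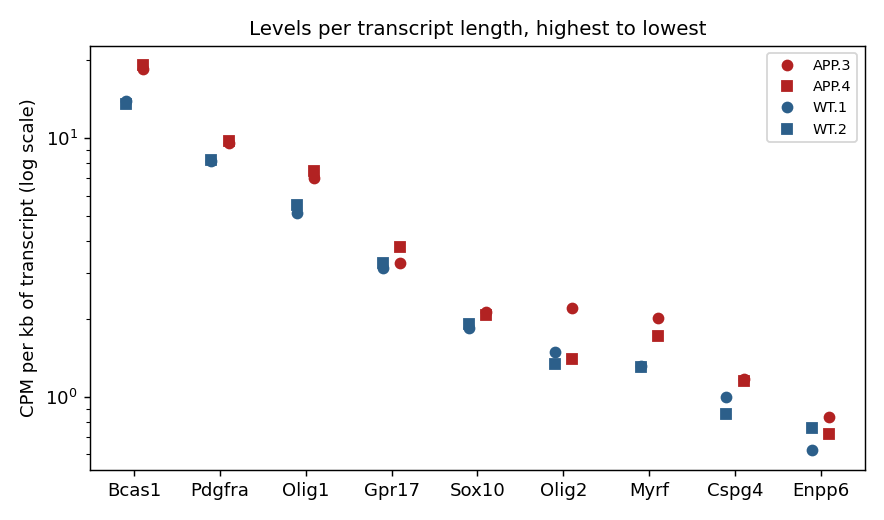
Level of each gene in CPM per kb of transcript, on a log axis, in the APP (red) and WT (blue) libraries, ordered from the highest mean to the lowest. Bcas1, Pdgfra, Olig1 and Gpr17 do not overlap with their neighbours, and Sox10, Olig2 and Myrf overlap in a row.

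Other genes of the lineage were taken from lists of precursor, newly formed, mature and regulatory genes. Of 13 other precursor genes counted, 0 had an adjusted p under 0.05 by edgeR's quasi-likelihood test. Their median log2 fold change was 0.12, with 9 above 0. The most abundant were Ptprz1, a phosphatase shared with astrocytes (0.35, edgeR adjusted p = 0.231), and Tnr, the matrix protein tenascin-R (0.044, edgeR adjusted p = 0.856). Tnr had 78.9 and 78.4 CPM in APP and 76.6 and 75.9 in WT.

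Of 13 other genes of newly formed oligodendrocytes, again 0 passed, with a median of 0.051 and 7 above 0. Fyn, a kinase of early myelination, had 68.9 and 63.0 CPM in APP and 59.8 and 61.7 in WT (0.12, edgeR adjusted p = 0.573). Zfp488, a zinc-finger factor of the lineage, had 445 to 466 CPM in the 4 libraries (-0.037, edgeR adjusted p = 0.871). That is close to the level of the major myelin gene Mbp, high for a transcription factor, and whether all these reads came from cells of the lineage was not tested.

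Mature myelin genes formed the next list, whose difference from the other lists was not tested. Of 22 counted, 22 had a log2 fold change above 0, 5 of them with an adjusted p under 0.05, among which were Trf, Mag, Cnp and Mobp, and the median was 0.55. The largest change of the 5 was that of Trf, the iron carrier transferrin, with 197 and 169 CPM in APP and 90.3 and 101 in WT (0.94, edgeR adjusted p = 0.00178). Mbp, the myelin basic protein, had 553 and 499 CPM in APP and 411 and 450 in WT and missed the threshold (0.29, edgeR adjusted p = 0.137). Among 25 regulators of the lineage, 0 passed and the median was 0.025. The most abundant, the zinc-finger factor Zeb2, had 229.6 and 240.3 CPM in APP and 229.5 and 228 in WT (0.039, edgeR adjusted p = 0.867). Pdgfa, the ligand of Pdgfra and not chosen by the rule, had 13.4 and 13.6 CPM in APP and 13.3 and 13.2 in WT (0.025, edgeR adjusted p = 0.955).

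**Figure D5:**
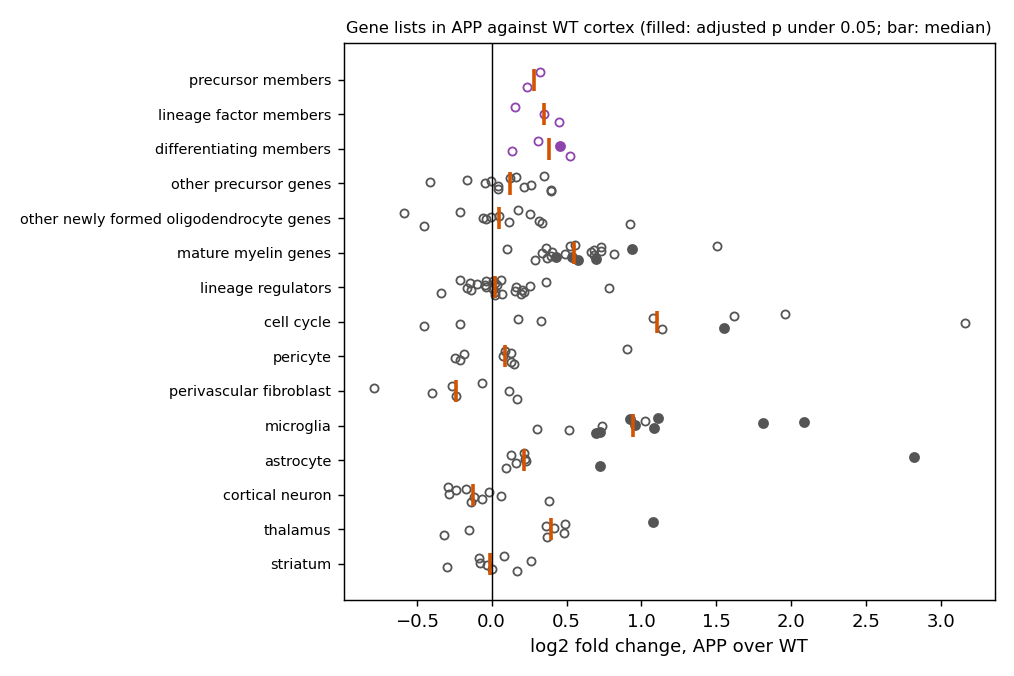
Log2 fold change of APP over WT for the genes of each list except the hypothalamic one, the 9 lineage genes in purple, filled where edgeR's adjusted p is under 0.05, with the list median as an orange bar. The mature myelin and microglial genes drawn are all above 0, while the other precursor genes and the regulators lie on both sides of it.

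Markers of other cells of the cortex were set beside these values. Of 12 microglial markers, 12 were above 0 and 8 had an adjusted p under 0.05, with a summed level of 538 to 669 CPM in APP and 317 to 320 in WT. Of 8 astrocyte markers, 8 were above 0 and 2, Gfap and Aqp4, passed, with 4716 to 5094 CPM in APP and 3858 to 4232 in WT. The cortical neuron markers were all counted, with 0 of 10 past the threshold and 8 below 0. They summed to 3200 to 4157 CPM in APP and 3718 to 3744 in WT. Among them Syt1 had the widest gap between the APP libraries, with 1304 CPM in APP.3 and 662 in APP.4, against 766 and 743 in WT. None of these lists had a marker at 0 in a library. Their part in the values of the lineage genes was not tested.

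Markers of brain regions outside the cortex were also compared. Of 9 thalamic markers 8 were counted, 6 above 0 and 1, Calb2, past the threshold, with a summed 77.5 to 79.3 CPM in APP and 58.1 to 58.4 in WT. Of 9 hypothalamic markers 6 were counted, 4 of which passed, with sums of 6.03 to 9.30 CPM in APP and 0.987 to 1.46 in WT, and 3 were at 0 in a library. The striatal markers, with 0 of 8 past the threshold, summed to 176 and 392 CPM in APP and 269 and 293 in WT, so they separated the APP libraries from each other. The part of these regional levels in the values of the lineage genes was not tested.

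The genes whose pattern over the 4 libraries was nearest to the mean precursor profile, among 14667 genes with a mean of at least 1 CPM, were Metap1d, Ccdc162 and Wwtr1. Their Euclidean distances in centred log2 CPM were 0.016, 0.023 and 0.029. Nearest to the differentiating profile were Cuedc1, Bach1 and Tmcc3, at 0.019, 0.035 and 0.039. Each distance is over 4 libraries, and 0 of the 6 had an adjusted p under 0.05 by edgeR's test.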

How the data were processed

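The authors depleted ribosomal RNA, made stranded paired-end libraries, removed remaining ribosomal pairs, mapped with FANSe2 to Ensembl mouse RNA allowing 7 mismatches, and kept transcripts with at least 10 reads. The deposited values used here are raw counts per transcript. The Ensembl release is not given in the sources used here. A further 4 columns headed CPM, 1 per library, and 4 columns of the authors' edgeR comparison were not used.

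Deposited symbols differed from the member names for 7 genes, 6 by case and Myrf by name, and were blank for 8274 transcripts. Counts were therefore summed per gene by transcript identifier in GENCODE M21 (98.2% matched), and the sum per deposited symbol, written as the main plan, became the alternative. Features needed at least 10 counts over the libraries, which all met. edgeR 4.0.16 in R 4.3.3 was run with TMM and glmQLFit with legacy set to FALSE, and DESeq2 1.42.0, edgeR's exact and likelihood ratio tests, other scalings, filters and left-out libraries were tried. Standard errors were taken as the absolute log2 fold change over the root of F. On simulated counts of 18378 genes, the quasi-likelihood test called 69% of genes changed 1.5-fold, 83% of those changed 2-fold and 4 unchanged genes. The simulation drew both groups with the same spread, taken from the fitted trend, and changed only genes above a minimum level. The APP replicates here were further apart than the WT replicates, so these shares do not carry over to the real libraries.

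WT columns were matched to mice by number and APP columns to their group only. Nothing says how the mice relate to litters or batches. The members and lists were chosen with earlier results of these data known. All members were named. The rule for each list was the 2 largest changes past the threshold and the 2 highest levels, but not every gene that met it is named. Pdgfa, Lims2, App, Cnp and Mobp were named outside this rule, after their values were seen. Some items withheld for evaluation are not reported here.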

Additional observations from a re-analysis of the deposited data

How the results depend on the processing

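With all 4 libraries kept, the log2 fold changes of the 9 genes kept their side of the 0.05 threshold in 86 of 90 fits, and the other 4 were Olig1 and Myrf passing with the exact and likelihood ratio tests. The number of the 9 genes with an adjusted p under 0.05 was 3 with each of these tests in place of 1, and the number of all genes past both cut-offs was 354 and 391 in place of 179, or 98 at a fold change of at least 2, which keeps fewer by construction. The cause was not tested for the other changes. Gene sums by deposited symbol gave 229 genes past both cut-offs and the earlier quasi-likelihood method 162. With each library left out in turn, where the lone library of a group is assumed to vary like the other group, the genes past both cut-offs ran from 67 to 607, the 9 genes past them from 0 to 1 (Myrf without APP.4) and those past the adjusted p alone from 0 to 3. It was 3 without APP.3 (Bcas1, Olig1 and Pdgfra), 3 without APP.4 (Bcas1, Olig1 and Myrf), 0 without WT.1 and 0 without WT.2. The share of all genes past the adjusted p alone in these fits is not given here, so the counts of the 9 have no matched background. Among all genes, those past both cut-offs were also fewer without a WT library than without an APP library. Whether the counts of the 9 differ from that shift was not tested. The median log2 fold change of the 9 genes ran from 0.25 to 0.41. Left out 1 at a time, the log2 fold change of Olig2 ran from -0.014 without APP.3 to 0.64 without APP.4, and that of Enpp6 from -0.062 without WT.1 to 0.76 without WT.2. No paired analysis was made, since nothing pairs an APP mouse with a WT mouse. The filter on summed counts removed no gene.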

Other observations

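Genes of the cell cycle, which dividing precursors share with other dividing cells, had few counts. Of 12 listed genes 10 were counted, and 8 had a log2 fold change above 0. Top2a, a topoisomerase of dividing cells, rose, from 45 and 30 counts in WT to 70 and 96 in APP (log2 fold change 1.55, edgeR adjusted p = 0.0284). It was the only 1 of the 10 past the threshold. Tpx2, a spindle protein and the other of highest level, had 2.83 and 3.20 CPM in APP and 2.30 and 3.08 in WT (0.18, edgeR adjusted p = 0.824). Which cells these transcripts came from was not tested.

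Cells of the vessel wall, which share Cspg4 and Pdgfra with the precursors, were represented by 9 pericyte and 7 perivascular fibroblast markers, all counted. By edgeR's quasi-likelihood test 0 of either list had an adjusted p under 0.05. The pericyte markers summed to 126 to 134 CPM in APP and 116 to 126 in WT, and the most abundant, Rgs5, a regulator of G protein signalling, had 58.4 and 64.0 CPM in APP and 55.9 and 56.1 in WT (log2 fold change 0.13, edgeR adjusted p = 0.535). The fibroblast markers summed to 36.9 to 43.1 CPM in APP and 38.4 to 47.8 in WT, with 5 of 7 below 0 and a median of -0.24. Dcn, the matrix proteoglycan decorin, had 11.8 and 12.5 CPM in APP and 12.6 and 9.79 in WT (0.12, edgeR adjusted p = 0.807).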
